A study of Mus musculus with 8 samples.

Results

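The cytosolic ribosomal protein genes encode the protein subunits of the ribosomes that translate nuclear mRNAs. They were picked out by name, as the rows of the deposited gene table whose symbol is Rps, Rpl or Rplp followed by a number and at most the letter a or x. That rule gave 75 of 24054 gene rows, 29 of the small subunit and 46 of the large subunit. The rule uses no measured value, but the set was chosen with earlier results of these data known. The study sequenced polyA-selected RNA of the WEHI-231-derived stable mouse lines WEHI-control and WEHI-miR-148a, the second named for the microRNA miR-148a. WEHI-231 is a mouse B lymphoma line, and the labels give the cell type of both lines as immature B lymphocytes. Each line was left without treatment or received antibody against IgM, its surface antigen receptor, at 2 ug/ml, with RNA taken at 14 h. The 4 groups are therefore control unstimulated, control anti-IgM, miR-148a unstimulated and miR-148a anti-IgM, with 2 libraries in each. Each line is a single stable line as far as the labels say, so a difference between the lines cannot be told apart from a difference between 2 stable derivatives.

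Ribosomal proteins are needed in near equal numbers for each ribosome, and their mRNAs are among the most abundant and longest lived in a growing cell. Most of these mRNAs begin with a C followed by an unbroken run of C and T, the terminal oligopyrimidine motif, through which mTOR and the RNA-binding protein LARP1 control whether they are translated or held in store. Myc is known to raise transcription of ribosomal protein genes together with the genes for rRNA synthesis and ribosome assembly. In WEHI-231 cells, cross-linking of the antigen receptor is known to bring a loss of Myc, growth arrest and death.

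Library totals ran from 5797035 to 18617609 counts, and every one of the 75 genes passed the low-count filter; the lowest count of any of them was 228, for Rpl34. By the run given in the labels, replicate 1 of every group belongs to a first run and replicate 2 to a second, and libraries of the same run deviated together. The labels do not say that replicates were separate cultures, so the spread behind the p-values may be only technical. B lineage markers summed to 2560 to 3620 CPM, counts scaled by library total and TMM factor to a common depth, over 8 genes. None of the 5 T cell markers or 4 fibroblast markers passed the filter, and Lyz2, S100a8, S100a9, Col1a2, Hbb-bs and Hbb-b1 were at 0 in all 8 libraries. Of 5 erythroid markers 1 passed the filter, and that list summed to 0.493 to 2.12 CPM. The monocyte, macrophage and neutrophil list summed to 0.922 to 1.99 CPM in unstimulated and 4.35 to 11.3 CPM in anti-IgM libraries, and its part in the results below was not tested. In bulk RNA, fewer cells and less RNA per cell cannot be told apart.

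The start of the transcript is the sequence these genes are known for, so windows of 30 bases around the RefSeq start (GRCm38.p6, 10 bases before it and 20 from it on, transcribed strand) are shown for 6 genes that the results turn on. Capitals mark a C followed by at least 4 letters C or T with its first base within 10 bases of the start. The first 4 hold such a run and the last 2, Rps28 and Rpl41, hold none at the annotated start.
Rpl12, chr2:32961702-32961731, plus strand: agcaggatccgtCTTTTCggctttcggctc
Rplp2, chr7:141447641-141447670, plus strand: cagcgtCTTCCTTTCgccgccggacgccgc
Rps6, chr4:86857348-86857377, minus strand: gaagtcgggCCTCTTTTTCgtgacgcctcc
Rpl7a, chr2:26910797-26910826, plus strand: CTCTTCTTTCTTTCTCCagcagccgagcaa
Rps28, chr17:33824543-33824572, minus strand: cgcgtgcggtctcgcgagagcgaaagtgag
Rpl41, chr10:128549149-128549178, minus strand: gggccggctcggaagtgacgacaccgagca

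Of the 75 genes, 55 matched the RefSeq promoter table. A start-site run of C or T was found in 34 of those 55 (61.8%), against 34.4% of all 27025 genes of that table. The letters CCGGAAG, read on both strands over 300 bases, were present in 22 of 55 (40%) against 9.93% of all genes. CTTTCC was present in 50.9% against 29.3%, GGGCGG in 60% against 38.2%, AGATGGC in 12.7% against 7.31% and TATAAA in 10.9% against 15.7%. CTTTCC can lie inside a start-site run, and other overlaps between motifs were not counted. Annotated starts can differ from the starts used in these cells, so these shares describe the annotation.

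Ribosomal protein mRNAs were abundant in every group. They filled 36 of the 100 highest places by CPM, and their counts summed to 7.76% ± 0.279 (SD, n = 2) of the library in control unstimulated cells. The same share was 8.21% ± 0.0672 in control anti-IgM, 8.36% ± 0.304 in miR-148a unstimulated and 8.76% ± 0.0946 in miR-148a anti-IgM cells (SD, n = 2 each). Within each run the share was higher with anti-IgM than without in both lines, and higher in the miR-148a line than in the control line in both conditions. These shares are of the raw library total, and no test was made on them. After TMM scaling, the scale of the main edgeR tests below, the median log2 response of the 75 genes was -0.044 in the first and 0.0913 in the second run of the control line, and -0.0277 and 0.0424 in those of the miR-148a line. On that scale the direction thus differed by run. As a share of the raw library total, the 34 genes for ribosome assembly and rRNA synthesis went from 1.28% ± 0.0112 to 0.951% ± 0.0516 of counts in the control line (SD, n = 2). In the miR-148a line that share went from 1.26% ± 0.0593 to 0.816% ± 0.117 (SD, n = 2). After TMM scaling the median response of these 34 genes was -0.637 and -0.462 in the 2 runs of the control line and -0.681 and -0.901 in those of the miR-148a line.

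Although the proteins are needed in near equal numbers, the mRNA values scaled by coding length were not equal. Per kb of coding sequence, which ran from 138 bases in Rpl41 to 1257 bases in Rpl4 (GENCODE vM21), the median gene stood at 2133 CPM per kb. Lengths are those of the annotated transcript with the longest coding sequence. It need not be the main mRNA of a gene, so the length can exceed that of the ribosomal protein. Rpl41, the shortest, was highest at 8873 CPM per kb, followed by Rpl12 with 4353, Rplp1 with 4245, Rps24 with 4216 and Rps29 with 3502 CPM per kb. At the other end were Rpl34 with 122, Rpl30 with 179 and Rpl26 with 193 CPM per kb. Reads from untranslated regions can count towards a gene, so this order also depends on their length. The annotated transcript of Rpl41 has 509 bases, 138 of them coding, and that of Rplp1 has 499, 342 of them coding. An order per kb of whole transcript is not given here. Counts of genes with near-identical copies are uncertain: the row Rpl34-ps1 held 403 to 530 CPM in the libraries where Rpl34 itself held 36.4 to 51.8 CPM. Rps27 held 46.8% to 47.2% of the CPM summed over its own row and the row Rps27rt in every library; whether reads were divided between them was not tested. Estimated counts off a whole number by more than 0.05 in at least 1 library were found in 20 of the 75 genes.

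No ribosomal protein mRNA was called changed by anti-IgM in the control line. By edgeR's quasi-likelihood test with Benjamini-Hochberg adjustment over 11291 genes, 0 of the 75 were called higher and 0 lower at an adjusted p of 0.05, where 17% of all genes tested were called, 9.6% higher and 7.45% lower. DESeq2 also called 0, and 1 of the 75, Rps20, was below an unadjusted p of 0.05, where 32.3% of all genes were. The median log2 fold change of the 75 was 0.02, beside 0.01 over all genes, and their values lay between -0.11 and 0.26. The 95% intervals of all 75 lay between -0.477, the lower end for Rpl5, and 0.565, the upper end for Rps28. A change beyond 1.48-fold up or to below 0.718 of the unstimulated level thus lay outside the interval of each gene. The small subunit had a median of 0.03 and the large subunit 0.01 on the log2 scale.

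The 2 largest positive fold changes of the control line belonged to Rplp2 and Rps28. Rplp2 encodes an acidic protein of the stalk that recruits elongation factors, and it stood at 336 and 341 CPM unstimulated and at 373 and 439 CPM with anti-IgM. Both stimulated libraries were above both unstimulated ones, most in the second run, and the log2 fold change was 0.26 ± 0.13 (SE) with an edgeR adjusted p of 0.197. Rps28, a small subunit protein near the mRNA exit channel, stood at 320 and 334 CPM unstimulated and at 345 and 435 CPM with anti-IgM. Its groups did not overlap, and the log2 fold change was 0.26 ± 0.14 (SE) with an edgeR adjusted p of 0.234. How many of all genes had groups without overlap was not counted. With 2 libraries a group, a lack of overlap, here or below, thus does not set a gene apart.

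Treating the run as a block moved 3 genes past the threshold, all higher, where 34.8% of all genes were then called and 17.6% were higher. They were Rpl41 with an adjusted p of 0.0282, Rps20 with 0.0394 and Rps28 with 0.0474 by edgeR with the replicate block. Rpl41, the smallest ribosomal protein, stood at 1088 and 1148 CPM unstimulated and at 1209 and 1362 CPM with anti-IgM, a log2 fold change of 0.20. Rps20, a protein of the head of the small subunit, stood at 740 and 710.1 CPM and then at 808 and 849 CPM, a log2 fold change of 0.19. Both were picked here after their values were seen. At the low end, Rpl7a, a large subunit protein, stood at 1420 and 1482 CPM unstimulated and at 1288 and 1393 CPM with anti-IgM. Its log2 fold change of -0.11 ± 0.08 (SE) had an edgeR adjusted p of 0.384. Rpl21 stood at 1052 and 1043 CPM and then at 961 and 976 CPM, with a log2 fold change of -0.11 ± 0.09 (SE) and an edgeR adjusted p of 0.404. The groups of Rpl7a and of Rpl21 did not overlap either, with no count over all genes to set beside this. Neither gene passed the test, with the block or without it.

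The miR-148a line gave the same count. By edgeR's quasi-likelihood test 0 of 75 were called higher and 0 lower with anti-IgM, where 28.7% of all genes tested were called, 14.7% higher and 14% lower. DESeq2 called 0, and 0 were below an unadjusted p of 0.05 by edgeR, where 40.8% of all genes were. The median log2 fold change was 0.01, beside 0.00 over all genes, and values lay between -0.15 and 0.29. The 95% intervals lay between -0.495 for Rpl5 and 0.602 for Rps28. Rps28 stood at 350 and 335 CPM unstimulated and at 373 and 465 CPM with anti-IgM, so its groups did not overlap here either. Its log2 fold change was 0.29 ± 0.14 (SE) with an edgeR adjusted p of 0.142, which became 0.0204 with the replicate block, where 46.1% of all genes were called and 22.8% were higher. It was also past the threshold without miR-148a anti-IgM replicate 1, at 0.438 on the log2 scale with an adjusted p of 0.0491 by edgeR. No other of the 75 passed with the block.

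Rps29, the smallest protein of the small subunit and a zinc-binding one, stood at 616 and 533 CPM unstimulated and at 595 and 728 CPM with anti-IgM in the miR-148a line. The groups overlapped, the 2 runs differed in sign, and the log2 fold change was 0.20 ± 0.13 (SE) with an edgeR adjusted p of 0.276. Rps2, at the mRNA entry channel, stood at 1852 and 2155 CPM and then at 1747 and 1874 CPM. Its log2 fold change was -0.15 ± 0.11 (SE) with an edgeR adjusted p of 0.358, and its groups overlapped. Rpl7a stood at 1392 and 1434 CPM unstimulated and at 1313 and 1315 CPM with anti-IgM, without overlap. Its log2 fold change of -0.11 ± 0.08 (SE) had an edgeR adjusted p of 0.381.

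**Figure D1:**
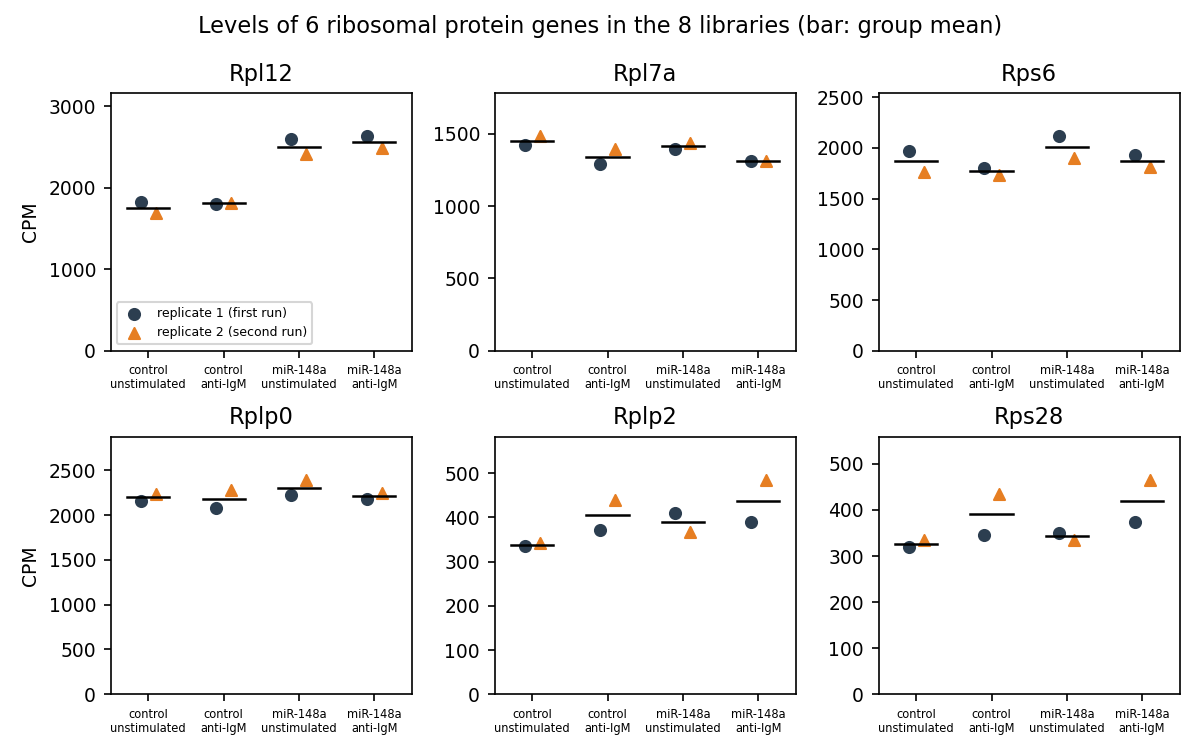
CPM (counts scaled by library total and TMM factor, axis from 0) of 6 ribosomal protein genes in the 8 libraries; circles are replicate 1, triangles replicate 2 and bars group means. Rpl12 lies between 1687 and 1820 CPM in the control line and between 2408 and 2629 CPM in the miR-148a line, while Rpl7a, Rps6 and Rplp0 vary little and Rplp2 and Rps28 are highest in the second anti-IgM libraries.

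Genes with a particular role in the ribosome or in signalling followed the rest. Rplp0, the base of the stalk, lay between 2077 and 2394 CPM over the 8 libraries, and Rplp1, the partner of Rplp2, between 1338 and 1602 CPM. Rps6, the substrate of S6 kinase, stood at 1973 and 1762 CPM in control unstimulated, 1807 and 1736 in control anti-IgM, 2114 and 1902 in miR-148a unstimulated and 1928 and 1813 CPM in miR-148a anti-IgM cells. Its groups overlapped within each line. Rpl5 and Rpl11 form a particle with 5S rRNA that can bind Mdm2 when ribosome assembly is disturbed. Rpl5 stood at 2323 and 1736 CPM in control unstimulated, 2195 and 1750.4 in control anti-IgM, 2481 and 1904 in miR-148a unstimulated and 2374 and 1832 CPM in miR-148a anti-IgM cells. In every group the first run was the higher, and Rpl11, between 1008.5 and 1257 CPM, did not share that pattern. Rps27a, made as a fusion with ubiquitin, lay between 1134 and 1382 CPM, and Rps19, mutated in Diamond-Blackfan anaemia, between 840.3 and 1002 CPM. Rpl10 at the tRNA sites lay between 1315 and 1574 CPM, Rpl3 near the catalytic centre between 2020 and 2286 CPM, and Rps3 at the mRNA entry channel between 1398 and 1816 CPM. Over these 12 genes, with Rpl22 below, the log2 fold changes with anti-IgM ran from -0.09 to 0.26 in the control line and from -0.10 to 0.17 in the miR-148a line, and the lowest edgeR adjusted p was 0.197.

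The 17 genes of the table known to be mutated in Diamond-Blackfan anaemia, an inherited failure of red cell production, held 0 calls in either response by edgeR, where 17% and 28.7% of all genes were called, with median log2 fold changes of 0.03 and 0.01. Rps28, 1 of the 17, was called higher in both with the replicate block. Ribosomal proteins whose symbols fall outside the naming rule were measured too. Rpsa lay between 2496 and 2948 CPM and Gnb2l1 (Rack1, a signalling scaffold) between 1451 and 1667 CPM. None of the 5 tested was called by edgeR in either response. Fau, made as a fusion with a ubiquitin-like protein, had an edgeR adjusted p of 0.188 in the control line and 0.0489 with the replicate block, with 509 and 499 CPM unstimulated against 542 and 629 CPM. Of 4 paralogues, Rpl7l1 and Rpl36al passed the test in both lines with the replicate block only, both lower. That fit called 34.8% of all genes in the control line, 17.6% higher and 17.2% lower. In the miR-148a line it called 46.1%, 22.8% higher and 23.3% lower. Rpl7l1, a nucleolar relative of Rpl7, stood at 181 and 182 CPM unstimulated and at 146 and 142 CPM with anti-IgM in the control line, and its adjusted p was 0.108, or 0.0104 with the block.

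Most genes for building ribosomes fell with anti-IgM. Of 34 genes for ribosome assembly and rRNA synthesis, edgeR called 23 lower and 0 higher in the control line and 31 lower and 0 higher in the miR-148a line, where 7.45% and 14% of all genes were lower, with median log2 fold changes of -0.54 and -0.79. Gnl3, the nucleolar protein nucleostemin, stood at 367 and 362 CPM in control unstimulated and at 162 and 174 CPM in control anti-IgM cells. Its log2 fold change was -1.12 ± 0.20 (SE) there and -1.54 ± 0.20 (SE) in the miR-148a line, with edgeR adjusted p of 0.00728 and 0.00109, the first of which was 0.0543 without control anti-IgM replicate 1. The control line count rests on single libraries: it was 9 without control unstimulated replicate 1, 3 without control unstimulated replicate 2, 0 without control anti-IgM replicate 1 and 15 without miR-148a unstimulated replicate 1. In the miR-148a line the count stayed between 21 and 31 over the 8 fits that each left out 1 library, and with the replicate block it was 33 in both lines.

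**Figure D2:**
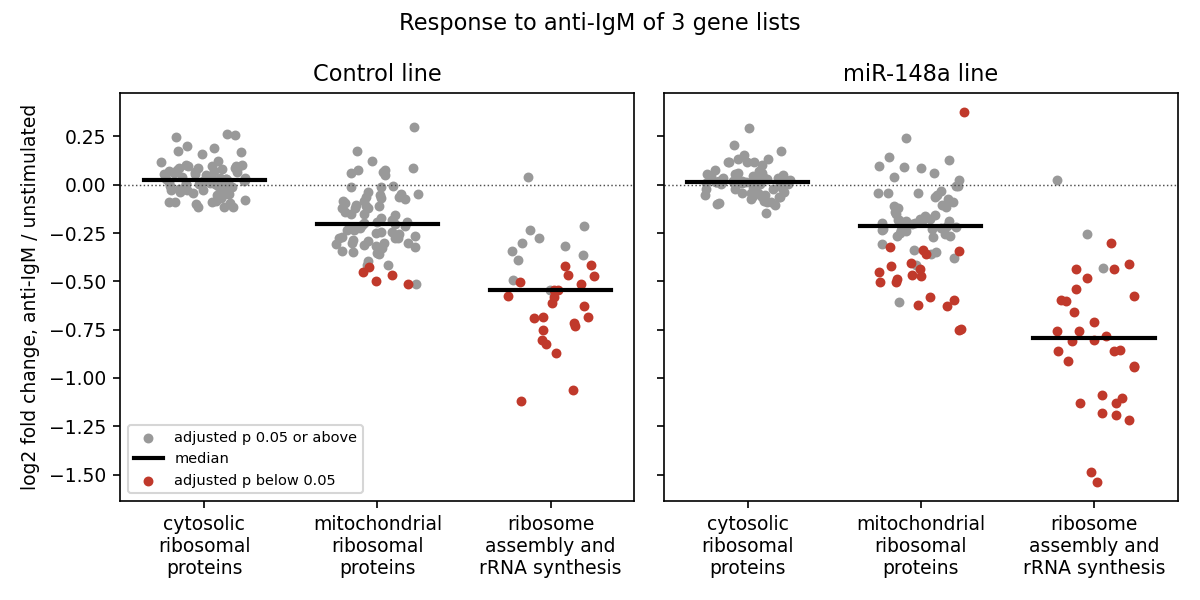
log2 fold change with anti-IgM of each gene in the 75 cytosolic ribosomal protein genes, the 77 mitochondrial ribosomal protein genes and the 34 assembly and rRNA synthesis genes, in the control line (left) and the miR-148a line (right); red points passed an edgeR adjusted p of 0.05 and bars are medians. The cytosolic ribosomal proteins sit between -0.15 and 0.29 with no red point, while the assembly genes have medians of -0.54 and -0.79.

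Of 5 dedicated chaperones, which escort single ribosomal proteins, 3 fell in each line. Of these 5, edgeR called Grwd1, which binds Rpl3, Tsr2, which binds Rps26, and Heatr3, which carries Rpl5, lower in both lines. Tsr2 stood at 75.8 and 72.1 CPM in control unstimulated and at 45.4 and 41.7 CPM in control anti-IgM cells, a log2 fold change of -0.77 ± 0.14 (SE) with an edgeR adjusted p of 0.00942. The call was lost without control anti-IgM replicate 2, at an edgeR adjusted p of 0.0549, and that in the miR-148a line without miR-148a unstimulated replicate 1, at 0.0518. In the control line Heatr3 lost its call without either control unstimulated replicate or control anti-IgM replicate 1, at 0.0787 to 0.123 by edgeR. Grwd1, at an edgeR adjusted p of 0.0495 there, lost its call in each fit that left out 1 library except that without control anti-IgM replicate 2. Of 77 mitochondrial ribosomal protein genes, which serve a separate ribosome, 5 were lower and 0 higher in the control line and 19 were lower and 1 higher in the miR-148a line. Lower calls were thus held by 6.49% of them in the control line, below the 7.45% of all genes, and by 24.7% in the miR-148a line against 14% of all genes. With the replicate block these counts became 28 lower and 1 higher, and 31 lower and 2 higher, where 17.2% and 23.3% of all genes were lower. No mitochondrial gene was called in the control line without control unstimulated replicate 2 or without control anti-IgM replicate 1, and the count was 2 without control unstimulated replicate 1, 3 without either miR-148a unstimulated replicate, 8 without either miR-148a anti-IgM replicate and 11 without the filter. In the miR-148a line the lower count was 5 without miR-148a anti-IgM replicate 2, 7 without either miR-148a unstimulated replicate, and 12 with library totals or with DESeq2.

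Of 20 regulators of ribosomal protein mRNAs, 5 fell in the control line and 7 in the miR-148a line by edgeR, or 11 and 12 with the replicate block. Of all genes tested, 7.45% and 14% were lower, or 17.2% and 23.3% with the block. The control count was 3 without control unstimulated replicate 1, 0 without control unstimulated replicate 2, 1 without control anti-IgM replicate 1 and 8 without the filter. The miR-148a count was 3 without miR-148a unstimulated replicate 1, 4 without miR-148a unstimulated replicate 2 and 3 without miR-148a anti-IgM replicate 2. Myc stood at 257 and 296 CPM in control unstimulated and at 55.4 and 137.3 CPM in control anti-IgM cells, and at 335 and 315 against 78.1 and 75.7 CPM in the miR-148a line. Its log2 fold changes were -1.50 ± 0.31 and -2.08 ± 0.32 (SE), with edgeR adjusted p of 0.0141 and 0.00208, and the first was 0.0669 without control unstimulated replicate 2. Larp1, which binds the start of ribosomal protein mRNAs, stood at 560 and 636 CPM in miR-148a unstimulated and at 306 and 356 CPM in miR-148a anti-IgM cells. Its log2 fold change was -0.85 ± 0.22 (SE) with an edgeR adjusted p of 0.0187. That call was lost without either miR-148a library of either condition, at 0.0512 to 0.0829. In the control line Larp1 was at -0.62 with an adjusted p of 0.0826, or 0.000225 with the replicate block. Mtor did not pass without the block, with adjusted p of 0.254 and 0.125 by edgeR, and passed with it, at 0.0126 and 0.0018. Other mRNAs with a terminal oligopyrimidine start, such as Eef1a1 at 11950 to 14330 CPM, had medians of -0.11 in the control line and -0.15 in the miR-148a line. In the control line 0 of these 16 were called, where 7.45% of all genes were lower. In the miR-148a line 1 was called lower, Eif2s3x, where 14% of all genes were. Eif2s3x, an initiation factor subunit, had an edgeR adjusted p of 0.0145 there, or 0.11 without miR-148a unstimulated replicate 1 and 0.0925 without miR-148a anti-IgM replicate 2. With the replicate block 4 and 7 of these 16 were called lower, where 17.2% and 23.3% of all genes were.

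Within the small range of the ribosomal protein response, shorter genes had the higher values. This relation was noticed after the values were seen and is given as a description across genes, which share their libraries and are not independent. Spearman's rho between coding length and log2 fold change was -0.668 in the control line and -0.666 in the miR-148a line over the 75 genes, responses that have no library in common. It was -0.653 and -0.723 over the 29 small subunit genes and -0.642 and -0.653 over the 46 large subunit genes. Over all 10482 tested genes with a coding length it was 0.0688 and 0.0301, and over the 77 mitochondrial ribosomal protein genes -0.194 and -0.326. The 9 genes below 300 coding bases, Rpl41, Rps29 and Rps28 among them, had medians of 0.171 and 0.119, and all 9 were positive in both lines. That holds for the fit of both runs and for the second run, but not for the first. In the first run Rpl37, Rpl38 and Rpl39 were lower with anti-IgM in both lines. Rpl37a, Rps27 and Rps29 were lower there in the miR-148a line. The 171 other tested genes of that length had medians of -0.0313 and 0.00266. The 21 genes of 600 bases or more had medians of -0.0281 and -0.0418. Without the 9 shortest genes, rho over the remaining 66 was -0.537 and -0.546. By run, rho was -0.482 and -0.724 in the control line and -0.297 and -0.646 in the miR-148a line, stronger in the second run of both. Line differences had rho of -0.0565 in unstimulated and -0.0225 in anti-IgM cells. By run these were -0.259 and 0.167 in unstimulated cells, opposite in sign, and 0.00322 and -0.0241 in anti-IgM cells. With transcript length in place of coding length, rho of the responses was weaker, at -0.473 in the control line and -0.331 in the miR-148a line. Over the 66 longer genes it was then -0.317 and -0.108. The median coding length of the 75 was 456 bases, against 1390 for all tested genes, and GC content gave rho of 0.241 and 0.214. Lengths are those of the annotated transcript with the longest coding sequence, and other transcripts of a gene were not tried. Whether library preparation or fragment length has a part in this was not tested.

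**Figure D3:**
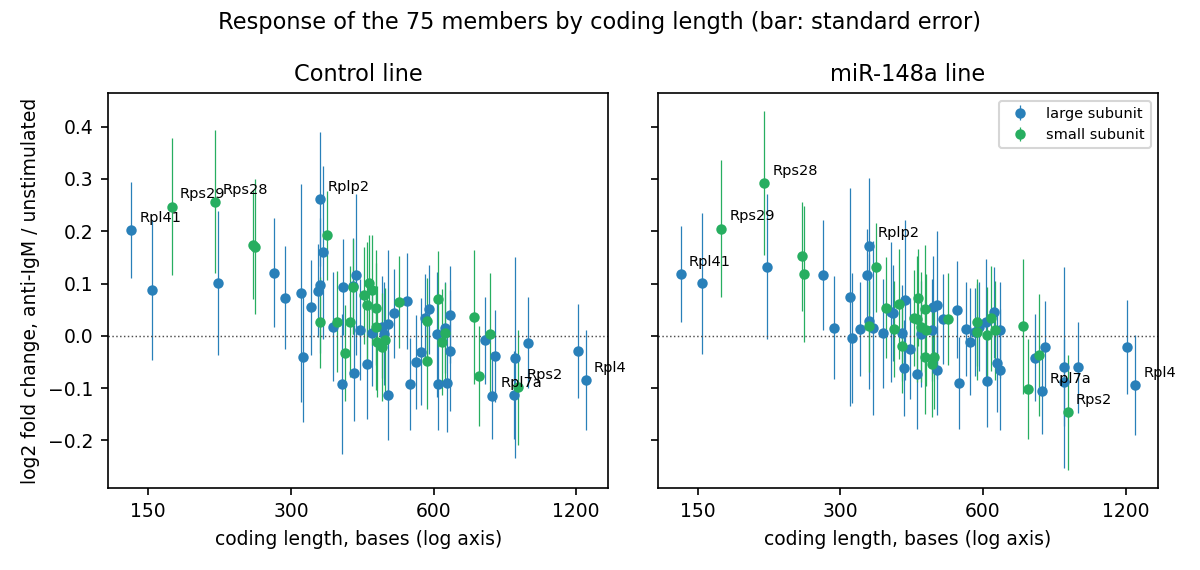
log2 fold change with anti-IgM against coding length (bases, log axis) of the 75 ribosomal protein genes in the control line (left) and the miR-148a line (right); points are coloured by subunit and bars are standard errors. In this fit of both runs the genes below 300 bases all lie above 0, which the first run alone did not show. Those of 600 bases or more have medians of -0.0281 and -0.0418, and standard errors are 0.0829 to 0.208.

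Between the lines, 1 ribosomal protein gene stood apart in each condition, and it was the same gene. Rpl12 encodes a large subunit protein at the base of the stalk, and the gene lies at chr2:32961559-32965345 (plus strand, GRCm38, 7 exons). It stood at 1820 and 1687 CPM in control unstimulated, 1798 and 1814 in control anti-IgM, 2596 and 2408 in miR-148a unstimulated and 2629 and 2488 CPM in miR-148a anti-IgM cells. All 4 libraries of the miR-148a line were above all 4 of the control line, and within each line the unstimulated and anti-IgM libraries overlapped. In unstimulated cells its log2 fold change was 0.51 ± 0.09 (SE), 1.43-fold with a 95% interval of 1.25 to 1.63, and its edgeR adjusted p was 0.0461. With anti-IgM it was 0.50 ± 0.09 (SE), 1.42-fold with a 95% interval of 1.24 to 1.62, and its edgeR adjusted p was 0.0264. Of the 75 genes Rpl12 was the only one called higher and 0 were called lower in each comparison, where 0.487% of all genes tested were called in unstimulated cells, 0.248% higher and 0.239% lower, and 2.52% in anti-IgM cells, 1.36% higher and 1.16% lower. At an unadjusted p under 0.05 by edgeR stood 2 of the 75 and 11.4% of all genes in unstimulated cells, and 1 of the 75 and 18.2% of all genes in anti-IgM cells.

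The size of the Rpl12 difference held in every fit, between 0.45 and 0.57 on the log2 scale, but its call did not. The replicate block gave edgeR adjusted p of 0.000247 and 0.0002, where 7.29% and 16.1% of all genes were called and 3.91% and 7.9% were higher, and DESeq2 gave 0.000674 and 0.000323. The unstimulated call was lost with RLE size factors, at 0.0505, and with only the 2 groups in the fit, at 0.0734. It was also lost without either replicate of control unstimulated, miR-148a unstimulated or control anti-IgM, at 0.0784 to 0.427. The anti-IgM call was lost with only the 2 groups, at 0.0813, and without either replicate of control anti-IgM, miR-148a anti-IgM or miR-148a unstimulated, at 0.0548 to 0.173. Lrsam1, the neighbour on the other strand whose annotated start overlaps the first bases of Rpl12, averaged 13.9 CPM and had log2 fold changes of -0.05 and -0.09. Fam129b, the next gene beyond it, averaged 15.9 CPM and had log2 fold changes of 0.83 and 0.86 with edgeR adjusted p of 0.123 and 0.0429.

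The other ribosomal protein genes leaned the same way by a small amount. The median log2 fold change of the 75 was 0.09 in unstimulated and 0.08 in anti-IgM cells, beside 0.01 and -0.01 over all genes. Positive values were held by 70 and 67 of the 75, where 51.3% and 48.5% of all genes were positive; since the 75 share the same 8 libraries and their scaling, these are not separate observations. In both runs 64 were positive in unstimulated and 57 in anti-IgM cells. At the low end of unstimulated cells were Rpl7a at -0.04 ± 0.08 (SE) and Rpl7 at -0.03 ± 0.09 (SE), and of anti-IgM cells Rpl34, whose counts are uncertain, at -0.15 ± 0.17 (SE) and Rps2 at -0.03 ± 0.11 (SE), with edgeR adjusted p of 0.693 or above. The mitochondrial ribosomal protein genes had medians of -0.08 and -0.11 and the assembly genes -0.03 and -0.27. In the first and second run the assembly medians were 0.0496 and -0.11 in unstimulated cells and 0.0102 and -0.557 in anti-IgM cells. The lower assembly median with anti-IgM thus came from the second run. The mitochondrial medians were -0.0478 and -0.107 in unstimulated cells and -0.0349 and -0.18 in anti-IgM cells. Gar1, a protein of the complexes that modify rRNA, was the only gene of those lists called, lower in anti-IgM cells at -0.52 ± 0.11 (SE) with an edgeR adjusted p of 0.0481. That call was lost in each of the 8 fits that left out 1 library, at 0.0746 to 0.268. In anti-IgM cells the fit with the replicate block called 12 of the 34 assembly genes lower and 1 higher, and 10 of the 77 mitochondrial genes lower. Of all 11291 genes, 930 were lower and 892 higher there. In unstimulated cells it called 2 of the 77 mitochondrial genes lower, beside 381 of all 11291 genes.

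**Figure D4:**
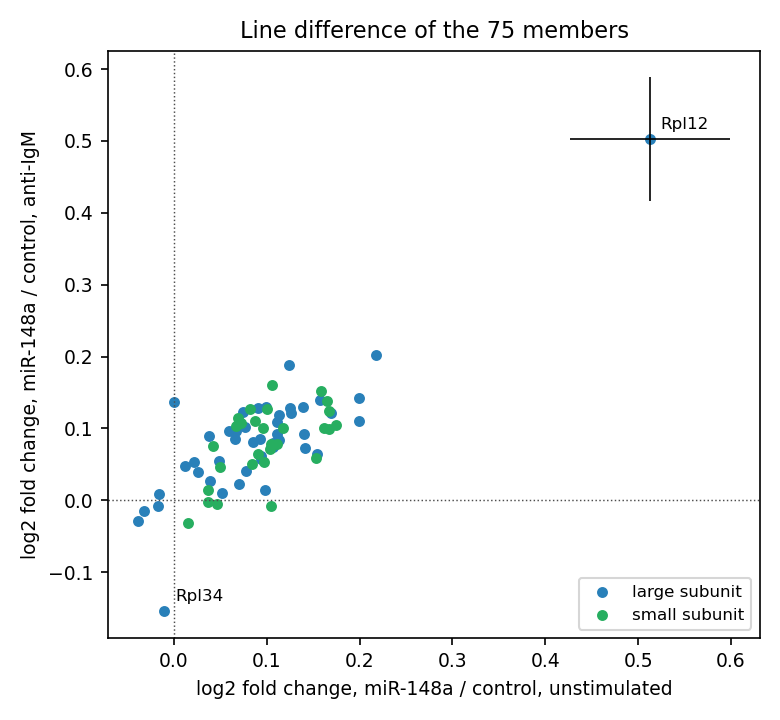
log2 fold change between the lines (miR-148a over control) for the 75 ribosomal protein genes, unstimulated (horizontal) against anti-IgM (vertical); points are coloured by subunit and the cross on Rpl12 is its standard error. Rpl12 lies at 0.51 and 0.50, apart from the other genes, and the medians of all 75 are 0.09 and 0.08.

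Rpl22 and its paralogue Rpl22l1, which can replace each other in the ribosome, were read together. Rpl22 stood at 785 and 660.2 CPM in control unstimulated, 711 and 646 in control anti-IgM, 770.4 and 676 in miR-148a unstimulated and 826 and 667 CPM in miR-148a anti-IgM cells. Rpl22l1 stood at 111 and 76.9 CPM, then 116 and 98.7, then 87.7 and 70.5, then 87.3 and 69.9 CPM in the same order. The first run was higher for both genes in every group. Rpl22l1 was at -0.45 ± 0.20 (SE) on the log2 scale with anti-IgM in the miR-148a line against control, with an edgeR adjusted p of 0.267, or 0.00382 with the replicate block. The block fit called 16.1% of all genes in that comparison. Rps27l, the paralogue of Rps27 and a known p53 target, lay between 135 and 187 CPM.

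The response to anti-IgM was not found to differ between the lines for any ribosomal protein gene. By edgeR's test of the interaction 0 of 75 were called, where 0% of all genes tested were, and 0 of the 75 and 484 of the 11291 genes (4.29%) were below an unadjusted p of 0.05. DESeq2 called 0 of the 75, and with the replicate block 0 of the 75 and 11 of all genes (0.0974%) were called. The median difference of log2 fold changes was -0.01, beside -0.02 over all genes. The largest positive values were 0.14 ± 0.19 (SE) for Rpl22 and 0.06 ± 0.13 (SE) for Rpl17, and the largest negative one was -0.14 ± 0.24 (SE) for Rpl34. For Rpl12 the difference of responses was -0.01 ± 0.12 (SE), with a 95% interval of -0.285 to 0.264. All 75 intervals lay between -0.677 for Rpl34 and 0.657 for Rpl36.

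Since the second line is named for miR-148a, sites for this microRNA were searched in annotated 3' untranslated regions. Only the transcript with the longest coding sequence of each gene was searched. The mature sequence from RefSeq is shown with its seed, bases 2 to 8, in capitals, and the 3 sites found are shown with the 7 bases that pair with the seed in capitals.
miR-148a-3p: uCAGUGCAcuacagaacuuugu
Rpl21, chr5:146837004-146837025, plus strand: ttagcattaaaTGCACTGgaga
Rps20, chr4:3833334-3833355, minus strand: aaaagtgtattTGCACTGtata
Rps24, chr14:24495916-24495937, plus strand: atgcagtcaagTGCACTGggct

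A site of these 7 bases was present in 3 of the 75 genes (4%), against 1428 of 10482 tested genes (13.6%), whose transcripts are longer. None of the 3 was called between the lines by edgeR: Rpl21 was at 0.07 and 0.12, Rps20 at 0.16 and 0.10 and Rps24 at 0.04 and 0.08 on the log2 scale in unstimulated and anti-IgM cells. All 6 values were positive, as were those of most ribosomal protein genes. Rpl12 holds no such site in the region searched. That region has 1079 bases in Rpl21, 3167 in Rps20 and 1173 in Rps24. Whether the mRNAs of these cells contain these sites was not tested.

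Some of these genes were also called between the sequencing runs, in a comparison of 4 against 4 libraries. In the fit with the run as a block, 7 of the 75 were higher and 10 lower in the second run by edgeR. Of all genes 18.8% were called there, 9.72% higher and 9.08% lower, so the share of the 75 was near that of all genes. The median of the 75 was -0.0573. With anti-IgM that fit called 3 of the 75 in the control line and 1 in the miR-148a line, from 2 against 2 libraries. Rpl5 was lowest at -0.376 with an adjusted p of 9.2e-05 and Rpl36, a large subunit protein, highest at 0.372 with an adjusted p of 0.00146. Every group holds 1 library of each run, so the run does not separate the groups.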

How the data were processed

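PolyA RNA of 8 libraries was sequenced, and the authors deposited estimated counts per gene symbol in 1 table without normalisation. The submitters' processing notes name TopHat2 2.0.13 with Bowtie2, cutadapt, CASAVA 1.8, edgeR and Partek 6.15.0730, and the build mm10 (GRCm38). Annotation, strand setting and each tool's role were not given in the sources used here, so reads of overlapping or near-identical genes may not have been told apart. Of 24081 rows, 27 whose names had become dates (0.213% to 0.235% of counts) were left out. Between 9.54% and 12.8% of values had a fractional part of any size, and all were rounded.

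edgeR 4.0.16 (R 4.3.3, limma 3.58.1) fitted all 8 libraries: filterByExpr by group, TMM factors, quasi-likelihood test, Benjamini-Hochberg adjustment over 11291 genes, threshold 0.05. Intervals are 95% intervals of the fit. CPM are counts scaled by library total and TMM factor. A check on simulated counts was run first. Sequences and annotation were handled in Python 3.11.15, with coding lengths from GENCODE vM21 matched by symbol. For each gene the protein-coding transcript with the longest coding sequence was used.

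Replicate numbers follow the run in the labels. Libraries of the same number deviated together from their group means (r across genes of 0.495 to 0.569 over 6 group pairs), so numbers pair libraries by run. The main test is unblocked, and the fit with the replicate block is given where it changes a call. Replicates differed by more than sampling noise (mean chi-square per gene 9.78 to 14.0 on 1 degree of freedom). Depth differed 3.21-fold between libraries, and the biological coefficient of variation was 11.1%, or 5.98% with the block. Alternatives were RLE factors, library totals, TMM without these genes, no filter, DESeq2 1.42.0, the block, the 2 groups alone and leaving out each library.

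Members, gene lists and tests were chosen with earlier results of these data known. Named genes are the 2 highest and 2 lowest per comparison, all called members, fixed genes by role, and up to 3 called genes of each related list or its most abundant gene; the text gives those that a result turns on, and some are not reported here.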

Additional observations from a re-analysis of the deposited data

How the results depend on the processing

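With the replicate block 3 genes were called higher with anti-IgM in the control line and 1 in the miR-148a line, in place of 0. Rpl12 gave 0 calls between unstimulated lines with RLE factors and 0 in either condition with only the 2 groups fitted. Leaving out 1 library at a time gave 0 to 1 calls between the lines in each condition, 0 to 1 higher in the miR-148a response and 0 elsewhere. Medians then ran from -0.0192 to 0.0616 (control response), -0.039 to 0.0546 (miR-148a response), 0.0531 to 0.141 (lines, unstimulated), 0.0615 to 0.101 (lines, anti-IgM) and -0.0626 to 0.0357 (difference of responses). Library totals gave a median of 0.082 in the miR-148a response, where the median of all genes also moved, to 0.0705. Without the filter the unstimulated line median was 0.0581 and that of the difference of responses 0.0314. Adding relatives and pseudogene rows raised the share of counts to 8.62%, 9.11%, 9.29% and 9.72%, in the order control unstimulated, control anti-IgM, miR-148a unstimulated and miR-148a anti-IgM. Without those rows, single libraries ran from 7.56% to 7.95%, 8.16% to 8.25%, 8.14% to 8.57% and 8.69% to 8.82%. Signs turned only for values that were not called. Leaving out 1 library, the line difference ran from -0.0847 to 0.00841 for Rpl7 (unstimulated), and from -0.314 to 0.0485 for Rpl34 and -0.118 to 0.0554 for Rps2 (anti-IgM). The difference of responses ran from -0.00676 to 0.138 for Rpl17, -0.325 to 0.0583 for Rpl34, -0.0271 to 0.283 for Rpl22 and -0.0686 to 0.0534 for Rpl12. Rpl12 also turned there with RLE factors (0.00518), with no filter (0.0332) and with DESeq2 (0.00519). The cause of these moves was not tested. With 2 libraries a group and a lone library assumed to vary like the rest when its partner was left out, differences of the size seen for most of these genes were within the spread.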
